A study of Homo sapiens with 6 samples.

Results

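The 9 genes described here are established transcriptional targets of the tumour suppressor p53: MDM2, CDKN1A, PMAIP1, TP53INP1, ZMAT3, SESN1, RRM2B, XPC and BAX. Each was taken as the row of the deposited expression table that carries its symbol, and each stood on 1 row of the 35544 in the table. They were measured in 6 polyA RNA sequencing libraries made from SiHa cells, a human line established from a squamous carcinoma of the cervix. In 3 libraries the cells had received a vector plasmid, and in the other 3 a plasmid for the circular RNA hsa_circ_0005358, with collection 72 h after transfection in both groups. The study asked which mRNAs lie downstream of this circular RNA. The share of transfected cells and the level of the circular RNA itself were not analysed here, and in bulk RNA fewer expressing cells and less RNA per cell cannot be told apart.

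p53 is held at a low level in unstressed cells by the ubiquitin ligase MDM2, which is itself made from a p53 target gene, so the pair forms a negative feedback loop. When p53 is stabilised it raises genes that stop the cell cycle, start cell death, repair DNA or adjust metabolism. SiHa carries integrated sequence of a high-risk papillomavirus, whose E6 protein recruits the cellular ligase E6AP, the product of UBE3A, to degrade p53. In such cells the p53 protein is usually scarce.

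Of the 9 targets, 4 were lower with the circular RNA plasmid (limma, adjusted p under 0.05), 0 were higher and 5 did not pass. The 4 were ZMAT3, PMAIP1, MDM2 and TP53INP1, and 1 of them, ZMAT3, fell by more than 2-fold. The count of called members was 3 without circ_0005358 replicate 2, 2 without vector replicate 1 (CDKN1A and TP53INP1), 1 without vector replicate 3 or circ_0005358 replicate 1 or 3, and 0 without vector replicate 2 (limma, 4 at an unadjusted p under 0.05). Among all 10295 tested loci 11.4% were called, 4.96% in the lower direction and 6.41% in the higher. All 9 genes passed the filter on low values (at least 1 FPKM in at least 3 of the 6 libraries). The median log2 fold change of the 9 was -0.44, beside 0.02 over all tested loci. Groups did not overlap for 4 of the 9, all of them lower, beside 35.8% of all tested loci in either direction and 15.9% in the lower one. The 9 genes and the lists used below were chosen with earlier results of these data known. Setting them beside all tested loci therefore describes them and tests nothing. FPKM counts fragments scaled to transcript length and to the number of mapped fragments, and fold changes here are differences of log2(FPKM + 1).

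**Figure D1:**
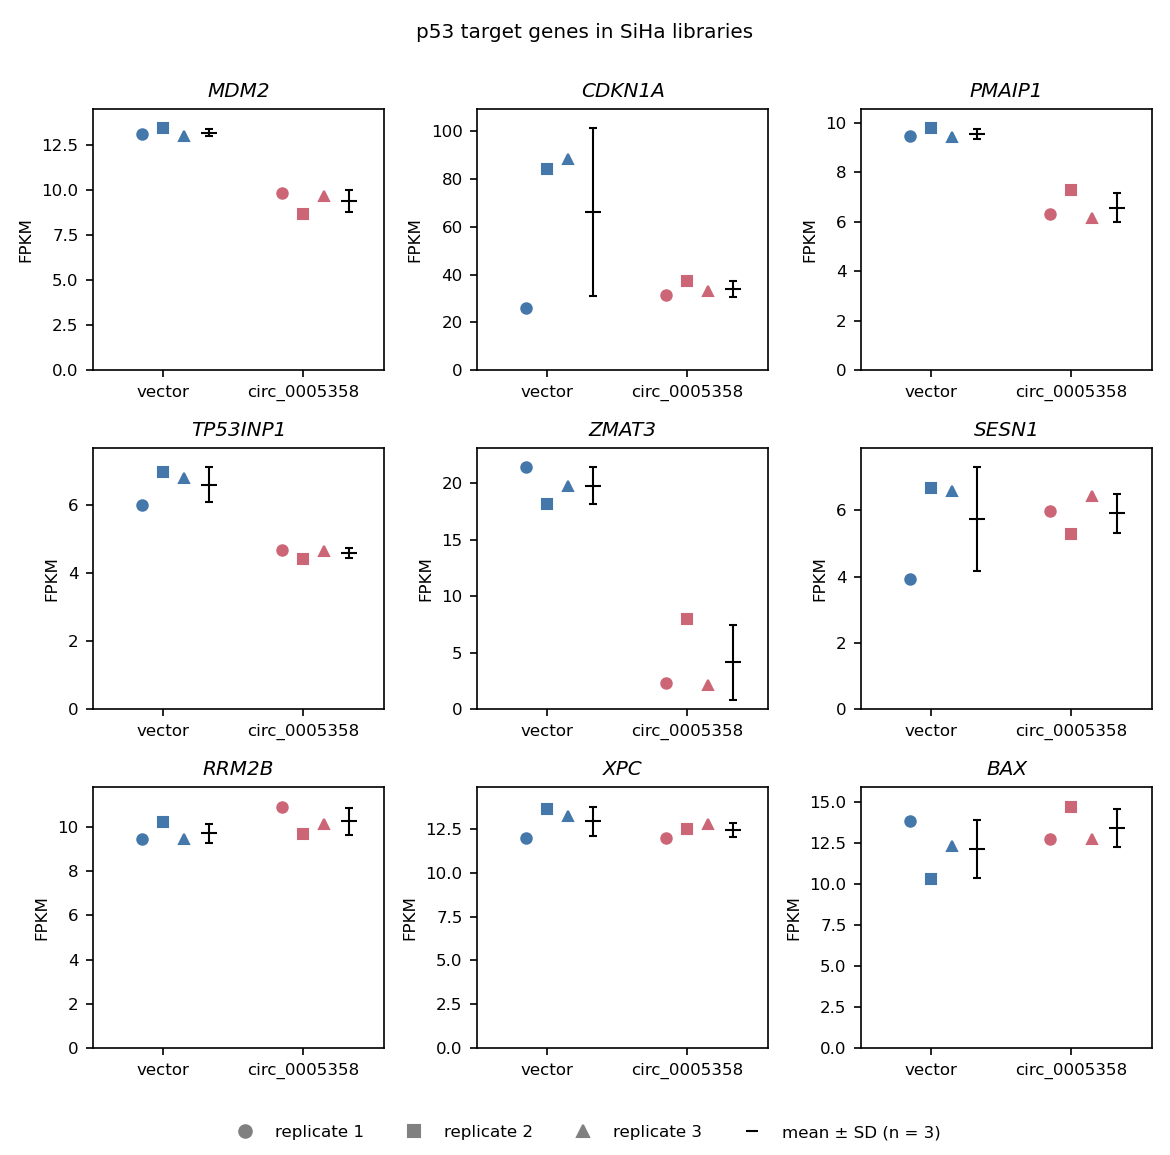
FPKM (vertical axis, from 0) of the 9 p53 target genes in the 3 vector and the 3 circ_0005358 libraries, with 1 marker shape per replicate number and the mean ± SD (n = 3) in black. MDM2, PMAIP1, TP53INP1 and ZMAT3 show groups that do not overlap, CDKN1A shows 1 low vector library at 25.9 FPKM, and ZMAT3 shows 1 circ_0005358 library at 8.01 FPKM.

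MDM2 and PMAIP1, which both fell, and SESN1, which did not pass, have a RefSeq start site (GRCh38.p14) whose window holds a match to the p53 response element. These 3 are shown to set matched elements beside genes that behaved differently. The element was searched as a pair of adjacent decamers of the p53 consensus, with the C and G of each decamer core intact and at most 3 mismatches over its 20 bases. The consensus reads the same on both strands, so 1 search covers both. Windows ran from 250 bases before to 50 after each annotated start, and the 250 bases before the start are printed 5′ to 3′ with the matched element in capitals.
MDM2 internal start, chr12:68808767-68809016, plus strand: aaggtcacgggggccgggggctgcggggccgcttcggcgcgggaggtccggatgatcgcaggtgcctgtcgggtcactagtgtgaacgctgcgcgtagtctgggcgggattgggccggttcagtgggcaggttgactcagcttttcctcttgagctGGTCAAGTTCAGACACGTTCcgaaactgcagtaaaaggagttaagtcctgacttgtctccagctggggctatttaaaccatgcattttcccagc
PMAIP1, chr18:59899746-59899995, plus strand: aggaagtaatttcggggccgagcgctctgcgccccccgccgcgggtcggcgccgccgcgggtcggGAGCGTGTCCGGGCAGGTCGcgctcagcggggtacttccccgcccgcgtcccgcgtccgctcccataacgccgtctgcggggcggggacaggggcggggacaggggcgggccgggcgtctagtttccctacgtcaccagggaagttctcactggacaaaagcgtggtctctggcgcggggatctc
SESN1 internal start, chr6:109008989-109009238, minus strand: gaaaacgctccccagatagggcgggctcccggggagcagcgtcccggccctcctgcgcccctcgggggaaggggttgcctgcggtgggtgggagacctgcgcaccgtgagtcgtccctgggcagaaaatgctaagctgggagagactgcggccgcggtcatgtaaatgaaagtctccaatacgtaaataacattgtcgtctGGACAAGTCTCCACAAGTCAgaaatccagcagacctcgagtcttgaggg
The MDM2 element, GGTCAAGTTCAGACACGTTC, had 2 mismatches, began 94 bases before the start and was found again in a window of MDM2 whose start differs by 7 bases. A match with at most 2 mismatches stood in 0.285% of 35116 promoter windows of this length. The SESN1 element, GGACAAGTCTCCACAAGTCA, had 3 mismatches, of which none lay in its first decamer, and began 49 bases before the start. The PMAIP1 element, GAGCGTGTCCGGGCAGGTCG, also had 3 mismatches, and 1.12% of all windows held a match with at most 3. Windows of CDKN1A, ZMAT3, XPC and BAX held no match at this limit, which says only that these letters are not in these windows. Windows of these 7 of the 9 genes were searched, and windows of TP53INP1 and RRM2B were not used here. A match describes letters only, and SESN1, which has one, was not among the genes that fell.

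MDM2, the ubiquitin ligase that limits p53, was lower in every circ_0005358 library than in any vector library. The vector libraries read 13.1, 13.4 and 13.0 FPKM, against 9.81, 8.66 and 9.64 FPKM for circ_0005358. Its vector SD was 0.180 FPKM and its circ_0005358 SD 0.625 FPKM (n = 3 each), so the fall to 0.710 of the vector mean was larger than the spread within groups. Its log2 fold change was -0.45 (SE 0.0637, limma adjusted p = 0.0120). The gene spans 68808176 to 68850686 of chromosome 12, plus strand (GENCODE 29, GRCh38), and the median log2 fold change of its 50 neighbouring tested loci was 0.00. Leaving out vector replicate 1 or 2 ended the call (limma adjusted p = 0.0531 and 0.0577), while the log2 fold change lay between -0.52 and -0.40 in all 18 alternatives.

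CDKN1A, which encodes the cyclin-dependent kinase inhibitor p21 and is the best known arrest target of p53, was the most abundant of the 9 genes in both groups (chromosome 6, 36676460 to 36687339, plus strand). Its values were 25.9, 84.2 and 88.5 FPKM in the vector libraries and 31.3, 37.5 and 33.1 FPKM in those with circ_0005358. The means were 66.2 ± 34.9 and 34.0 ± 3.21 FPKM (SD, n = 3). The circ_0005358 libraries lay close together, but vector replicate 1 was below all of them, so the groups overlapped. The log2 fold change was -0.76 with a 95% interval from -1.98 to 0.46 (SE 0.488, limma adjusted p = 0.385, exact permutation p = 0.400). CDKN1A did pass once vector replicate 1 was left out (log2 fold change -1.32, limma adjusted p = 0.00827), when the vector mean was 86.3 FPKM. With vector replicate 2 or 3 left out in its place, the log2 fold change was -0.49 or -0.46 (limma adjusted p = 0.644 and 0.633). With both libraries numbered 1 left out, a choice made after these values were seen, its log2 fold change was -1.27 (limma adjusted p = 0.0414). Vector replicate 1 was at least 2-fold below both other vector libraries for 2.71% of all tested loci. Each of the other 5 libraries was so far below both others of its group for 2.15% to 2.74%, so vector replicate 1 did not stand apart from the other libraries in this measure.

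ZMAT3, a zinc finger protein that binds RNA, had the largest fall of the 9. Vector libraries held 21.4, 18.2 and 19.8 FPKM, and circ_0005358 libraries 2.31, 8.01 and 2.14 FPKM. All 3 circ_0005358 libraries were below every vector library, but replicate 2 was 3.59 times the mean of the other 2. The log2 fold change was -2.19 (SE 0.427, 95% interval from -3.26 to -1.12, limma adjusted p = 0.0327). Without circ_0005358 replicate 2 it was -2.68 (adjusted p = 0.00267), and without any 1 of the other 5 libraries it lay between -2.25 and -1.93 and the call was lost (adjusted p from 0.0912 to 0.107). That library was also the shallowest, at 71.1% of the implied depth of vector replicate 2, and the part of depth in this value was not tested. ZMAT3 spans 179017223 to 179072279 of chromosome 3, minus strand, and for its 50 neighbours the median change was -0.09 on the log2 scale. Of the 4 transcripts in its row, 3 are annotated transcripts of ZMAT3 and the other was assembled from these reads.

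**Figure D2:**
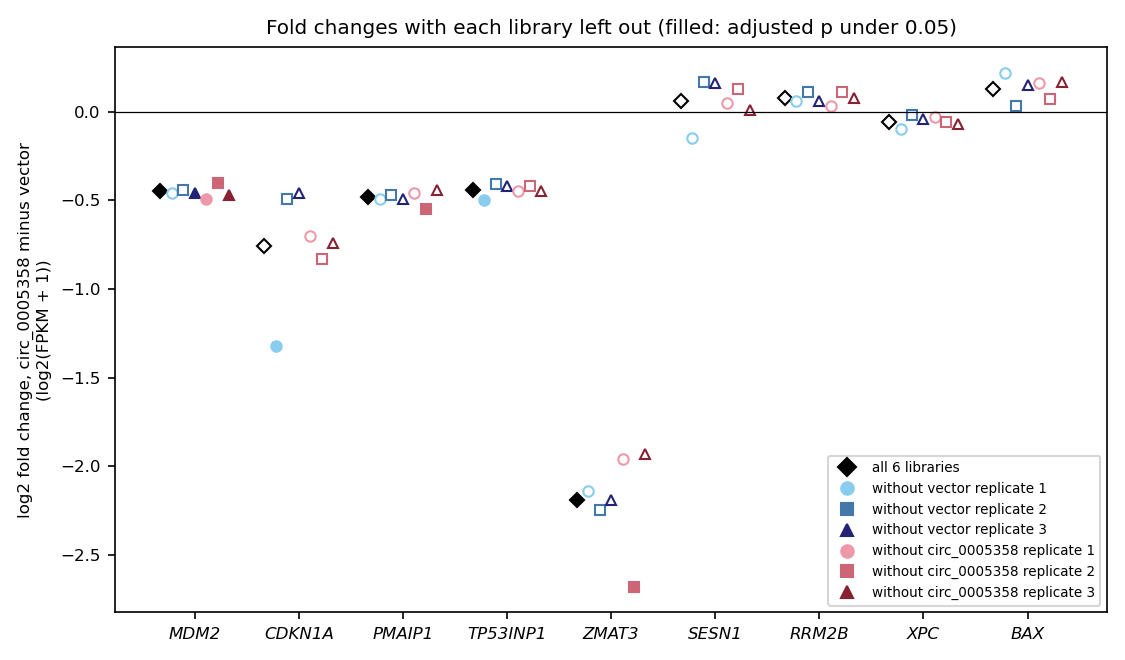
Log2 fold change (circ_0005358 minus vector, vertical axis) of the 9 genes with all 6 libraries (black) and with each library left out (colours and shapes), filled where the adjusted p is under 0.05. CDKN1A goes from -0.76 to -1.32 without vector replicate 1, and ZMAT3 from -2.19 to -2.68 without circ_0005358 replicate 2, while MDM2, PMAIP1 and TP53INP1 move little.

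PMAIP1 encodes NOXA, a BH3-only protein that neutralises the survival factor MCL1. Its gene spans 59899948 to 59904306 of chromosome 18, plus strand, and read 9.47, 9.78 and 9.43 FPKM with vector against 6.30, 7.27 and 6.17 FPKM with circ_0005358, without overlap. Its mean fell to 0.688 of the vector level (log2 fold change -0.48, SE 0.0736, limma adjusted p = 0.0153). TP53INP1, a stress protein that takes part in cell death and autophagy (chromosome 8, 94925972 to 94949411, minus strand), read 6.02, 6.98 and 6.81 FPKM with vector against 4.69, 4.42 and 4.67 FPKM with circ_0005358. Its groups did not overlap either, and its mean fell to 0.695 of the vector level (log2 fold change -0.44, SE 0.0718, limma adjusted p = 0.0189). MDM2, PMAIP1 and TP53INP1 thus fell by similar amounts, with 95% intervals of -0.61 to -0.30, -0.66 to -0.30 and -0.62 to -0.26. The PMAIP1 call was lost with any 1 of 5 libraries left out (adjusted p from 0.0541 to 0.0676) and held without circ_0005358 replicate 2 (adjusted p = 0.0143). The TP53INP1 call was lost with any 1 of 5 libraries left out (adjusted p from 0.0560 to 0.0727) and held without vector replicate 1 (adjusted p = 0.0304).

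BAX forms the pores that release cytochrome c from mitochondria (chromosome 19, 48954815 to 48961798, plus strand). It was among the 10 of 14 tested death targets that did not pass, beside 9124 of all 10295 tested loci. Vector libraries held 13.8, 10.3 and 12.3 FPKM and circ_0005358 libraries 12.7, 14.7 and 12.7 FPKM, and the groups overlapped. Its log2 fold change was 0.13, with a 95% interval from -0.17 to 0.43 (limma adjusted p = 0.538, exact permutation p = 0.400). The median of its 50 neighbours on chromosome 19 was 0.26, the highest neighbour median among the 9 genes.

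The repair genes showed the narrowest intervals of the genes that did not pass. XPC, which recognises bulky lesions for nucleotide excision repair (chromosome 3, 14145147 to 14178783, minus strand), read 12.0, 13.6 and 13.2 FPKM with vector against 12.0, 12.5 and 12.8 FPKM with circ_0005358 (log2 fold change -0.06, 95% interval from -0.22 to 0.11, limma adjusted p = 0.638). RRM2B, the p53-inducible small subunit of ribonucleotide reductase (chromosome 8, 102204502 to 102239118, minus strand), read 9.43, 10.2 and 9.43 FPKM with vector against 10.9, 9.68 and 10.1 FPKM with circ_0005358 (log2 fold change 0.08, 95% interval from -0.09 to 0.24, limma adjusted p = 0.533). Both sets of values overlapped, and both intervals lay above the fitted falls of MDM2, PMAIP1 and TP53INP1. SESN1, a sestrin that restrains mTORC1 (chromosome 6, 108986437 to 109094819, minus strand), read 3.92, 6.68 and 6.57 FPKM with vector against 5.97, 5.29 and 6.44 FPKM with circ_0005358. Its lowest value was again vector replicate 1, at 0.592 of the mean of the other 2 vector libraries. Its log2 fold change was 0.06 (95% interval from -0.43 to 0.55, limma adjusted p = 0.870) and turned to -0.15 without vector replicate 1 (adjusted p = 0.438).

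By level, the order of the vector means was CDKN1A at 66.2, ZMAT3 at 19.8, MDM2 at 13.2, XPC at 13.0, BAX at 12.2, RRM2B at 9.67, PMAIP1 at 9.56, TP53INP1 at 6.61 and SESN1 at 5.73 FPKM. MDM2, XPC and BAX did not differ from each other beyond their SDs (0.180, 0.832 and 1.74 FPKM), nor did RRM2B from PMAIP1 or TP53INP1 from SESN1. With circ_0005358 the order was CDKN1A at 34.0, BAX at 13.4, XPC at 12.4, RRM2B at 10.2, MDM2 at 9.37, PMAIP1 at 6.58, SESN1 at 5.90, TP53INP1 at 4.59 and ZMAT3 at 4.15 FPKM. With an SD of 3.34 FPKM, ZMAT3 did not differ there from TP53INP1, SESN1 or PMAIP1 beyond its spread. The spread within groups differed between the genes, with a coefficient of variation over the vector libraries of 1.37% for MDM2 and 52.8% for CDKN1A. Over the circ_0005358 libraries it ran from 3.11% for XPC to 80.4% for ZMAT3.

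**Figure D3:**
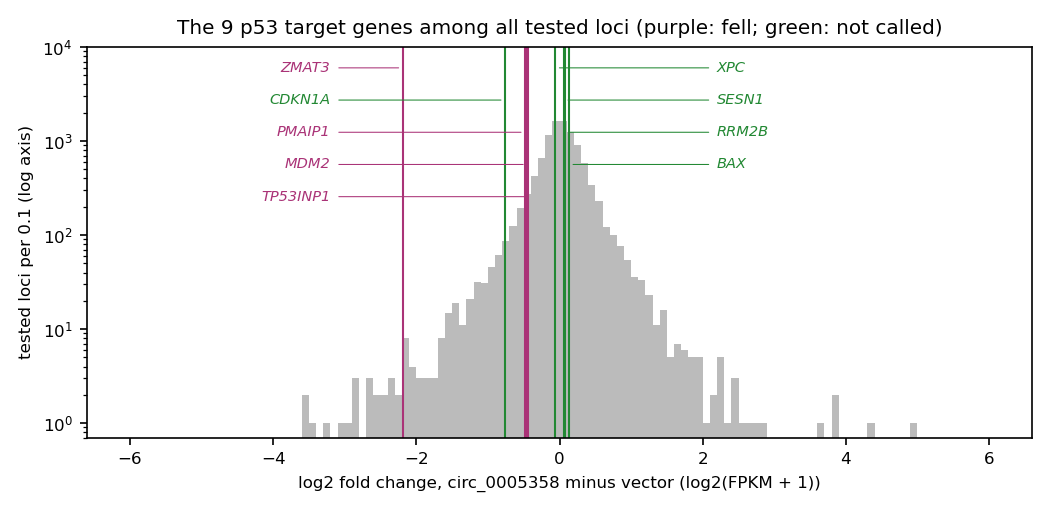
Number of tested loci (vertical log axis) by log2 fold change in bins of 0.1 (horizontal axis, circ_0005358 minus vector), with a line at each of the 9 genes, purple where the gene fell and green where it did not pass. XPC, SESN1, RRM2B and BAX sit at the centre of the distribution, MDM2, PMAIP1 and TP53INP1 lie together near -0.45, and ZMAT3 lies at -2.19 in the lower tail.

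The genes whose values over the 6 libraries were most like those of each fallen member were taken by the smallest root mean square difference of log2(FPKM + 1), centred on the vector mean. For MDM2 they were CLIC4 (0.032) and BTBD10 (0.038), with log2 fold changes of -0.41 and -0.44. For PMAIP1 they were SLC7A1 (0.043) and DNPEP (0.053), and for TP53INP1 STN1 (0.042) and MYOF (0.042). ZMAT3 had no close match: the nearest were EREG (0.38), which lacked the high replicate 2, and NANP (0.42), at 0.331, 3.76 and 0 FPKM with circ_0005358. These likenesses rest on 6 libraries of 2 groups and include the fold change itself.

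Among 15 tested genes that act on p53, 1 fell and 1 rose, or 13.3%, beside 11.4% of all tested loci, and their median log2 fold change was 0.01. UBE3A, the gene of E6AP, went down without overlap from a vector mean of 11.8 ± 0.172 to 8.67 ± 0.312 FPKM with circ_0005358 (SD, n = 3 each). Its log2 fold change was -0.40 (SE 0.0523, limma adjusted p = 0.00981). Its row also carries a clone-named locus, AC100774.1. The UBE3A call was lost without vector replicate 1 or 2 (adjusted p = 0.0506 and 0.0501), and its fold change lay between -0.47 and -0.38 in 18 alternatives. TP53BP1, which organises the response to DNA breaks, rose from 7.54 ± 0.122 with vector to 9.44 ± 0.603 FPKM with circ_0005358 (SD, n = 3 each). Its log2 fold change was 0.29 (limma adjusted p = 0.0452). That call was lost with any 1 of the 6 libraries left out (adjusted p from 0.0507 to 0.135). The most abundant of these genes were USP7, a deubiquitinase of MDM2 and p53, CDKN2A, whose locus encodes p16 and ARF, and the coactivator EP300. Their log2 fold changes were -0.08, 0.13 and 0.01 (limma adjusted p = 0.677, 0.676 and 0.906). Of other genes, chosen after their values were seen, the p53 ligase gene COP1 and the p53 phosphatase gene PPM1D had non-overlapping lower values that did not pass (log2 fold changes -0.27 and -0.21, limma adjusted p = 0.0655 and 0.124). The checkpoint kinase gene CHEK2 had non-overlapping higher values (log2 fold change 0.31, adjusted p = 0.0699). MDM4, the partner of MDM2, split within both groups, at 1.51, 3.55 and 3.44 FPKM with vector against 1.27, 3.58 and 0.857 FPKM with circ_0005358.

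**Figure D4:**
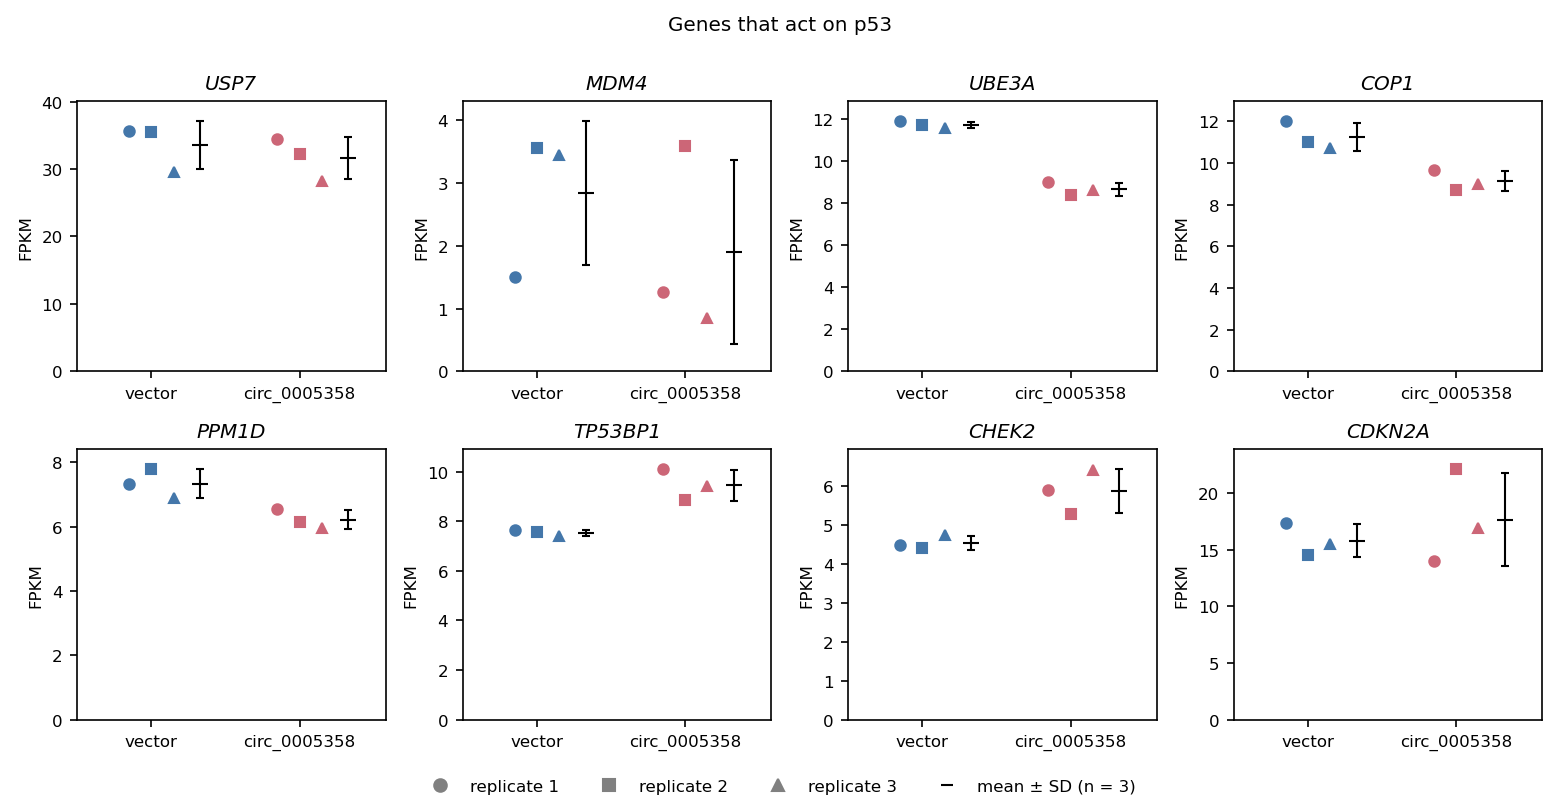
FPKM (vertical axis, from 0) of 8 genes that act on p53 in each library, with 1 marker shape per replicate number and the mean ± SD (n = 3) in black. UBE3A is lower and TP53BP1 higher in all circ_0005358 libraries, and MDM4 splits within both groups, from 0.857 to 3.58 FPKM.

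A wider list of 66 reported p53 targets, the 9 included, had 61 genes with a row of their own and 5 in rows shared with other genes. Of the 50 tested, 6 fell and 3 rose, or 18.0%, with a median log2 fold change of -0.06. Without the 9, 2 of 41 fell and 3 rose, or 12.2%, also with a median of -0.06, beside 11.4% of all tested loci. This share depended on the scaling: it was 19.5% under quantile normalization (5 lower and 3 higher) and 17.1% under TMM scaling (4 lower and 3 higher), beside 11.1% and 11.2% of all loci. Among death genes 4 of 14 fell and 0 rose, beside 4.96% of all tested loci in the lower direction. Of these, 3 are the members already described, and the other is PERP, a membrane protein of desmosomes and cell death. PERP fell to 0.499 of its vector mean, from 168, 163 and 159.6 FPKM with vector to 88.1, 76.8 and 79.6 FPKM with circ_0005358 (limma adjusted p = 0.00117). PERP passed in all 18 alternatives (adjusted p up to 0.0409). Of the epithelial markers checked in these libraries, 7 of 8 tested fell (KRT7, KRT8, KRT17, KRT18, EPCAM, CDH1 and CLDN1) and 0 rose, and their summed level was 1386 to 1453 FPKM with vector and 628 to 704 FPKM with circ_0005358. KRT5, a basal keratin, was listed at 0 with circ_0005358 and averaged 0.0275 FPKM with vector. The part of the epithelial shift in the PERP value was not tested. Markers of other cell types, 10 in number, summed to 18.0 to 22.0 FPKM with vector and 4.72 to 19.6 FPKM with circ_0005358, most of it from CD14 and LUM. LUM fell from 7.47 to 1.43 FPKM (limma adjusted p = 0.00285), and CD14 split at 1.33, 14.5 and 16.2 FPKM with circ_0005358. The others were too low to be tested. Of these, COL3A1 (0.109 to 0.821 FPKM) and PECAM1 (0.168 to 0.301 FPKM) were higher without overlap. COL1A1 (0.531 to 0.251 FPKM) and SNAP25 (0.146 to 0.0931 FPKM) were lower without overlap. PTPRC and CD3E stayed at or below 0.161 FPKM.

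Of 5 tested arrest genes 0 passed (limma), beside 11.4% of all tested loci. At an unadjusted p under 0.05 stood 2 of the 5, both lower. Over all 10295 tested loci this held for 2813, with 1199 of them lower. PLK2, a stress-induced kinase, had means of 28.5 ± 3.07 FPKM with vector and 21.5 ± 1.29 FPKM with circ_0005358 (SD, n = 3 each, limma adjusted p = 0.0572). GADD45A, a growth arrest gene, had 1 high value of 13.6 FPKM in vector replicate 3 and lay between 5.34 and 5.93 FPKM in the other 5 libraries. Of 8 tested repair genes 0 passed (limma), beside 11.4% of all tested loci, and 0 had an unadjusted p under 0.05. PCNA, the replication clamp, stood at 129 to 135 FPKM with vector and 122 to 136 FPKM with circ_0005358. Among 9 tested metabolic genes 1 rose and 0 fell, or 11.1%, beside 11.4% of all tested loci, and 3 more were lower at an unadjusted p under 0.05. The gene that rose was DRAM1, a lysosomal membrane protein gene of autophagy, which went from 12.8, 11.1 and 9.78 FPKM to 28.1, 23.8 and 26.6 FPKM (log2 fold change 1.16, SE 0.113, limma adjusted p = 0.00400). DRAM1 thus moved against the 4 fallen members and passed in 17 of 18 alternatives, the exception being both libraries numbered 1 left out (adjusted p = 0.0519). The antioxidant gene GPX1 and the AMPK subunit gene PRKAB2, the other abundant metabolic targets, had log2 fold changes of -0.06 and -0.01. TIGAR, a regulator of glycolysis, and FDXR, ferredoxin reductase, had lower values without overlap that did not pass (log2 fold changes -0.44 and -0.38, limma adjusted p = 0.0541 and 0.0597), and were named after their values were seen. Both passed after rescaling to the same sum (0.0407 and 0.0421), quantile normalization (0.0410 and 0.0373) and TMM scaling (0.0424 and 0.0457), and in no other alternative.

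Of 14 tested feedback and other targets 2 fell, MDM2 and KITLG, and 2 rose, NINJ1 and ABHD4, or 28.6% beside 11.4% of all tested loci. KITLG, the gene of stem cell factor, went down from 6.67 ± 0.787 with vector to 2.98 ± 0.389 FPKM with circ_0005358 (SD, n = 3 each, limma adjusted p = 0.00772), and its call held with each 1 library left out. NINJ1, a mediator of membrane rupture, went from 18.4 ± 1.18 to 25.5 ± 2.27 FPKM, and the lipase gene ABHD4 from 16.3 ± 1.25 to 21.4 ± 0.597 FPKM (SD, n = 3 each; limma adjusted p = 0.0332 and 0.0299). The NINJ1 call was lost without any vector replicate and without circ_0005358 replicate 2 or 3 (adjusted p from 0.0629 to 0.111), and the ABHD4 call with any 1 library left out (0.0552 to 0.0984). PLXNB2, the most abundant gene of this list, did not pass (log2 fold change 0.14, limma adjusted p = 0.343). Rows that join TRIM22 with OR56B1 and ALDH4A1 with its neighbours also had lower values (log2 fold changes -1.33 and -0.46, limma adjusted p = 0.000437 and 0.0367) but cannot be given to 1 gene. Some targets split within groups: IER5 was listed at 0 in 2 circ_0005358 libraries and at 9.25 FPKM in replicate 2, and vector replicate 2 held 0.0131 FPKM beside 12.6 FPKM in replicate 1.

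**Figure D5:**
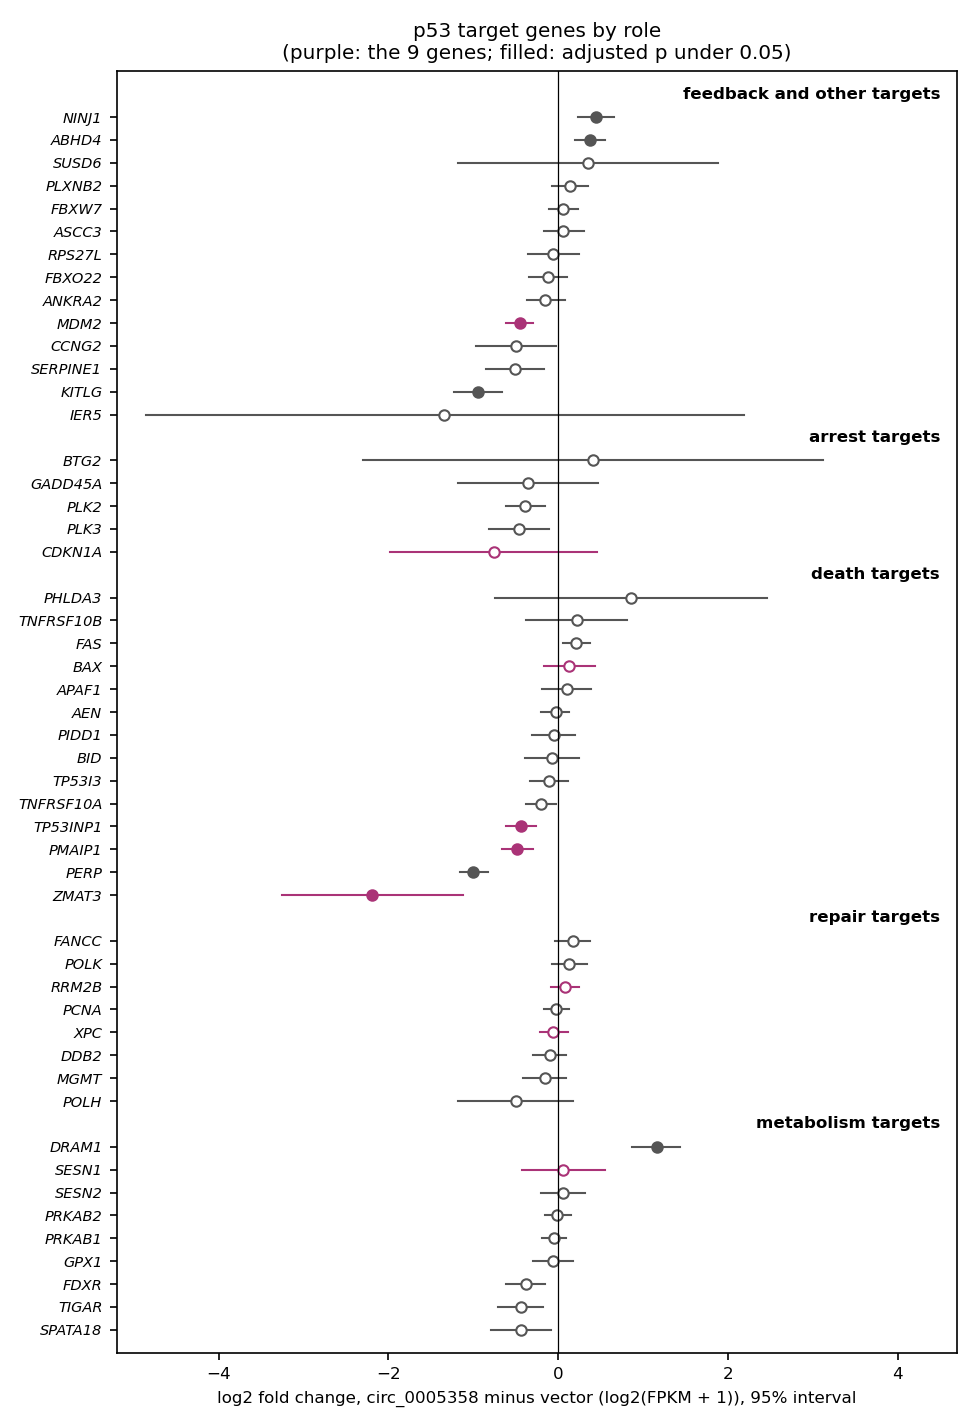
Log2 fold change (circ_0005358 minus vector, horizontal axis) with its 95% interval for the 50 tested p53 targets, grouped by role, purple for the 9 genes and filled where the adjusted p is under 0.05. The filled points are MDM2, KITLG, TP53INP1, PMAIP1, PERP and ZMAT3 on the lower side and NINJ1, ABHD4 and DRAM1 on the higher side, and every repair gene is open.

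The KEGG p53 signalling pathway, as listed in the deposited table, holds 7 of the 9 members. Of its 56 tested loci 8 fell and 2 rose, or 17.9%, with a median log2 fold change of -0.01, beside 11.4% of all tested loci. Without the members 5 of 49 fell and 2 rose, or 14.3%, with a median of 0.01. Besides ZMAT3, PMAIP1, MDM2 and PERP, the loci that fell were IGFBP3, CDK6, SERPINB5 and CCNE1. IGFBP3, an insulin-like growth factor binding protein, fell from 3.98 to 1.38 FPKM, and CDK6, a G1 kinase, by 0.72 on the log2 scale from 2.29 FPKM (limma adjusted p = 0.0216 and 0.00548). SERPINB5, which encodes maspin, fell from 28.0 to 20.7 FPKM, and CCNE1, which encodes cyclin E1, from 10.2 to 7.66 FPKM (adjusted p = 0.0151 and 0.0458). THBS1, which encodes a secreted inhibitor of angiogenesis, rose from 15.0 to 49.4 FPKM, and CCND3, which encodes cyclin D3, from 6.08 to 7.93 FPKM (adjusted p = 0.000151 and 0.0410). With 1 library left out, THBS1 and CDK6 always passed, IGFBP3 was lost without vector replicate 1 or any circ_0005358 replicate (adjusted p from 0.0654 to 0.0804), and SERPINB5 without vector replicate 1 or 2 or circ_0005358 replicate 3 (0.0622 to 0.0655). CCNE1 and CCND3 were lost with any 1 library left out (0.0564 to 0.132 and 0.0601 to 0.132).

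Genes that p53 represses through p21, which encode drivers of the cell cycle, were called in both directions. Of 11 tested, FOXM1 rose, MYBL2 fell and 9 did not pass, or 18.2% called beside 11.4% of all tested loci, with a median log2 fold change of 0.02. At an unadjusted p under 0.05 stood 5 of the 11, beside 2813 of all 10295 tested loci, of which 1199 were lower. Of the 5, 1 was lower (MYBL2) and the other 4 were higher: FOXM1, CCNA2, CCNB2 and BIRC5. The last 3 did not pass after adjustment (limma adjusted p = 0.0722, 0.162 and 0.138) and were named after their values were seen. FOXM1, a transcription factor of mitotic genes, went from 28.5 ± 0.518 to 35.6 ± 1.60 FPKM, and MYBL2, a partner of the same programme, from 98.3 ± 4.84 to 76.2 ± 5.75 FPKM (SD, n = 3 each; limma adjusted p = 0.0225 and 0.0372). Both calls were lost with any 1 library left out except circ_0005358 replicate 2 (adjusted p from 0.0579 to 0.0886 and from 0.0770 to 0.108). CCNB1, which encodes cyclin B1, stood at 85.7 to 90.0 FPKM with vector and 84.3 to 87.2 FPKM with circ_0005358, and the log2 fold change of CDC20 was -0.08.

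Nothing in the labels ties the numbered libraries to separate cultures, and the p-values therefore reflect only how far these libraries differ, which may be technical. The smallest p that the exact two-sided permutation test of 3 against 3 libraries allows is 0.1, and each of the 4 fallen members reached it. Groups that do not overlap always reach it, and 35.8% of all tested loci had such groups, so this only restates the lack of overlap. FPKM sums of the libraries ran from 138864 to 145278, and implied depths from 93.6% of that of vector replicate 2 upward, except for circ_0005358 replicate 2. Vector replicate 3 had 27803 loci above 0 FPKM, against 23227 to 23834 in each of the other libraries. What underlies this difference was not tested.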

How the data were processed

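PolyA RNA of 6 SiHa libraries was sequenced, 3 per plasmid. The labels spell the circular RNA in 3 ways, taken as the same RNA. The authors deposited 1 table of FPKM per locus. Trimmomatic, HISAT2 and hg19 were used, per the submitters' processing notes; the program behind the FPKM values is not given in the sources used here. Identifiers of the assembled kind mark 16797 loci, so some rows join genes. A row stood for a gene with 1 name or 1 protein-coding name. GENCODE 29 (99.9% of transcript identifiers matched) gave positions on GRCh38, a build other than that of the alignment. No read counts were used. Depth relative to the deepest library was estimated from how much FPKM 1 fragment adds at loci with a single transcript. Loci with at least 1 FPKM in at least 3 libraries were compared by limma 3.58.1 (R 4.3.3) on log2(FPKM + 1), letting the variance follow the mean. Two-sided p-values were adjusted after Benjamini and Hochberg over all tested loci, and the threshold was 0.05. The log scale understates changes of low genes. The procedure was tested on simulated data. For single genes an exact two-sided permutation test was added. Alternatives were other pseudocounts (0.1 and 0.5), filters, scalings (to the same sum, by quantiles and by TMM factors), variance models, library weights, a replicate block and libraries left out. In each list of p53 targets, of genes that act on p53 and of cell cycle genes, every gene on its own row past the threshold and the 3 with the highest mean were named, and of the KEGG loci those past the threshold. The 9 genes and the lists were chosen with earlier results of these data known. 1 gene named in the plan is not reported here.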

Additional observations from a re-analysis of the deposited data

How the results depend on the processing

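Counts of called loci depended on the libraries and the filter. Of all tested loci 11.4% were called in the main fit, and 1.79% of 33088 with no filter. The share was 2.52% with the replicate block and 4.82% to 7.55% with 1 library left out. It was 2.03% without vector replicate 3 and circ_0005358 replicate 2, and 1.17% without both libraries numbered 1. Tested with no filter were 61 wider targets, 15 regulators, 68 KEGG loci and 11 cell cycle genes. With no filter 591 loci were called in place of 1171, and 2 of the 9 members, 5 of the wider targets, 1 of the regulators, 6 of the KEGG pathway loci and 0 of the cell cycle genes passed (limma, 5 of the last at an unadjusted p under 0.05). The deviations of same-numbered libraries correlated weakly, at 0.064, 0.048 and 0.078, and every library correlated best with its own number. Correlations between differently numbered libraries of the 2 groups lay between -0.054 and -0.011. These values do not settle whether the numbers pair the libraries. With the replicate block 259 loci were called, and 0 of the 9 members (4 unadjusted), 2 wider targets, 0 regulators (4 unadjusted), 3 KEGG loci and 0 cell cycle genes (3 unadjusted) passed. Leaving out 1 library gave 485 to 761 loci, 0 to 3 members, 3 to 6 wider targets, 0 to 1 regulators, 4 to 7 KEGG loci and 0 to 2 cell cycle genes. The 0 members came without vector replicate 2 (limma, 4 unadjusted). The 0 regulators came without vector replicates 1 or 2 (4 unadjusted each), and the 0 cell cycle genes without any 1 of the vector libraries or circ_0005358 replicate 1 (3, 5, 3 and 4 unadjusted). With the pair of vector replicate 3 and circ_0005358 replicate 2 removed, 198 loci, 1 member, 4 wider targets, 0 regulators (5 unadjusted), 3 KEGG loci and 0 cell cycle genes (2 unadjusted) were called. With both libraries numbered 1 left out, chosen after the data were seen, 115 loci, 1 member, 2 wider targets, 0 regulators (3 unadjusted), 3 KEGG loci and 0 cell cycle genes (2 unadjusted) were called. Rescaling to the same sum, quantile normalization and TMM scaling each left 1 regulator, beside 10.7%, 11.1% and 11.2% of all tested loci. With libraries left out the fit had fewer values to work from, and why the counts differed between alternatives was not tested.

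All 4 fallen members stayed below 0 in all 18 alternatives. Among 82 genes, 1452 gene results under an alternative included 127 lost calls, 14 gained calls and 0 reversed calls. Of all called loci 56.4% were higher, but 48.4% after rescaling to the same sum. Each member stood on 1 row, so summing rows gave no other value. With no read counts no counting interval was drawn.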
